A study of Mus musculus with 21 samples.

Results

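Leukaemia inhibitory factor (LIF) is the cytokine that holds mouse embryonic stem cells in an undifferentiated state in culture, and its signal reaches the nucleus through JAK kinases and the transcription factor STAT3. Transcripts of 10 genes of this pathway were followed, taken by symbol from the 20900 genes of the deposited table: the ligand gene Lif, the receptor genes Lifr and Il6st, the kinase genes Jak1 and Jak2, the transcription factor gene Stat3, the feedback inhibitor gene Socs3, and the STAT3-responsive genes Pim1, Pim3 and Gbx2. All 10 were found, and all 10 passed the filter on low values in all 21 libraries.

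LIF binds its receptor LIFR, which pairs with the signal-transducing chain encoded by Il6st and shared by the whole interleukin-6 cytokine family. JAK1 and related kinases bound to these receptors phosphorylate STAT3, which dimerises, enters the nucleus and binds DNA sites of the form TTCNNNGAA. SOCS3 is made in response and shuts the signal off at the receptor, while PIM1, PIM3 and GBX2 lie downstream and can help embryonic stem cells to self-renew when they are overproduced. RNA levels were measured here, and neither the amount nor the phosphorylation of any protein was.

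The cells were E14 mouse embryonic stem cells, a line of 129 strain origin, grown in 15% serum with 2000 U/ml LIF in every group. They were given fresh medium with 1 µM BMH-21 or 1 µM CX-5461 and harvested after 2, 4 or 8 h. Both compounds inhibit RNA polymerase I, which transcribes ribosomal DNA. Untreated cells at 0 h were the control for both inhibitors, so the 7 groups of 3 replicates (21 libraries) hold no group kept for 2, 4 or 8 h without inhibitor. The labels do not say whether the 0 h cells were given fresh medium, and the effects of inhibitor, of fresh medium with its LIF and of time cannot be told apart. The labels do not say that replicates were separate cultures, so p-values rest on the spread between these samples, which may be technical. The test takes that spread largely from a trend over all genes: 111.5 prior degrees of freedom as deposited, beside 14 residual ones. Within every group the replicate libraries were further apart than read sampling gives (chi-square per degree of freedom 2.58 to 26.0).

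Libraries held 46604397 to 62812641 reads over the table. The deposited value is a log2 CPM over a scaled library size, with 0.5 reads added. The scaling factors ran from 0.832 to 1.375, against 0.941 to 1.107 for median-ratio factors computed from the same genes, so changes are given as deposited and, where it matters, after centring each library on its median gene and with median-ratio factors. Centring takes a shift shared by all genes out of each log2 fold change: -0.08 at 2 h, -0.15 at 4 h and -0.21 at 8 h of BMH-21, and -0.15, -0.16 and 0.22 at these times of CX-5461. A gene is said to rise, fall or change where limma's two-sided test, adjusted by Benjamini-Hochberg over 14666 genes, gave a p under 0.05. The 8 embryonic stem cell markers checked (Pou5f1, Sox2, Nanog, Zfp42, Esrrb, Klf2, Dppa5a and Tdgf1) were each present with at least 5167 reads in every library. Their summed level as deposited was 5948 to 6809.65 CPM in control, 2956 to 3139.96 after 8 h of BMH-21 and 5522 to 5944 after 8 h of CX-5461. After centring, every marker but Tdgf1 had a lower mean log2 value after 8 h of CX-5461 than in control. The means went from 8.61 to 7.65 for Esrrb, from 9.78 to 9.62 for Dppa5a and from 9.805 to 9.96 for Tdgf1. In bulk RNA, fewer cells of a type and less RNA per cell cannot be told apart. The 6 fibroblast markers summed to 12.4 to 14.8 in control, 34.55 to 41.57 after 8 h of BMH-21 and 29.0 to 30.2 after 8 h of CX-5461, mostly Col1a1, with Lum at 0 to 2 reads. The 5 trophectoderm markers summed to 77.4 to 84.2, 113.5 to 138.1 and 117.7 to 139.4 in these groups, mostly Tfap2c. The mean log2 value of Tfap2c was 6.20, 6.88 and 6.85 in this order, and Cdx2 and Hand1 also had higher means than in control. Eomes had means of 2.175, 1.08 and 3.04, so it was lower under BMH-21, and Elf5 stayed at -1.09, -0.998 and -0.988. The 5 primitive endoderm markers summed to 8.77 to 10.96, 7.66 to 9.30 and 12.1 to 12.4. The 3 haematopoietic markers summed to 32.5 to 34.3 in control, 28.4 to 34.1 after 8 h of BMH-21 and 47.0 to 50.4 after 8 h of CX-5461, mostly Cd68 (1393 to 2590 reads), with Ptprc at 1 to 39 reads and Csf1r at 1 to 15 in any library. The part of these markers in the results on the pathway was not tested.

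Over the 6 comparisons with control, which share the control libraries, Lif rose in all 6 and Lifr fell in all 6, while Il6st, Pim1, Pim3 and Gbx2 fell in 5 each. Jak2 fell at 4 h and rose at 8 h with both inhibitors, Stat3 fell in 3 comparisons by small amounts, Socs3 fell in 3 and rose in 1, and Jak1 rose in 1. Of all genes tested, 5.33% were called higher in all 6 and 2.29% lower in all 6. The share called lower in 5 was not computed, so the counts of 5 are description only. The share of all genes called in each comparison is set beside the members' counts in the paragraph on those counts. The plot of the 10 genes by library shows these courses. Where groups of 3 libraries are said not to overlap, this describes the values, and the share of all genes without overlap is not given.

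**Figure D1:**
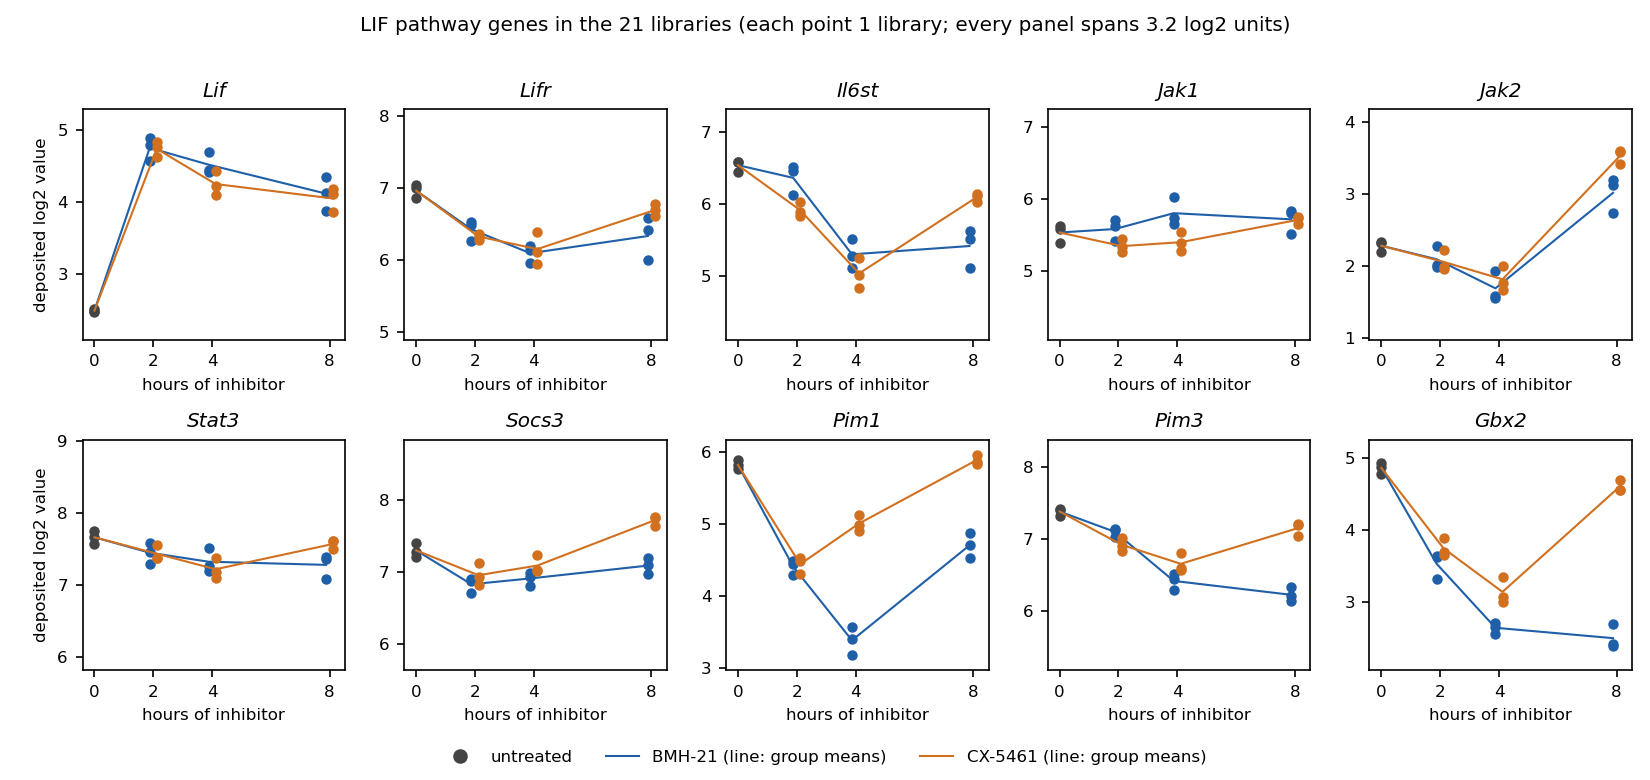
Deposited log2 value (vertical axis, each panel spanning the same number of log2 units) of the 10 LIF pathway genes against hours of inhibitor (horizontal axis). Each point is 1 library (grey untreated, blue BMH-21, orange CX-5461) and lines join group means: Lif lies above control in all treated libraries, Lifr below it, and Jak2 dips at 4 h before it rises at 8 h.

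The share of members called stood furthest above the share of all genes called at 2 h, and as deposited the shares at 8 h were close to each other. After 2 h of BMH-21, 1 member rose and 5 fell, where 19.7% of all genes tested were called (8.48% higher, 11.2% lower). After 4 h, 2 rose and 8 fell (background 67.0%, of which 22.1% higher and 44.9% lower). After 8 h, 2 rose and 6 fell (background 81.5%, 24.5% higher and 56.9% lower). CX-5461 called 1 higher and 6 lower at 2 h (background 27.9%, 7.45% and 20.5%) and 1 higher and 7 lower at 4 h (70.9%, 19.8% and 51.2%). After 8 h of CX-5461, 3 rose and 2 fell (49.4%, 35.1% and 14.3%). After centring, the members called higher and lower were 2 and 6 at 2 h of BMH-21 (background 18.6% and 17.5%), 2 and 8 at 4 h (32.2% and 41.5%) and 3 and 6 at 8 h (33.3% and 51.3%). In the CX-5461 groups they were 1 and 6 (15.8% and 17.8%), 1 and 7 (28.5% and 45.7%) and 3 and 6 (29.3% and 44.7%). Median-ratio factors gave 2 and 8 at 4 h of BMH-21 (34.4% and 38.8%), 4 and 5 at 8 h (39.2% and 43.3%), 2 and 7 at 4 h of CX-5461 (33.3% and 36.5%) and 3 and 5 at 8 h (35.2% and 35.3%). Over the 10 members the log2 fold change under BMH-21 had a median of -0.25 at 2 h, -0.73 at 4 h and -0.51 at 8 h, beside -0.07, -0.21 and -0.40 over all genes tested. Under CX-5461 it was -0.40, -0.60 and -0.01, beside -0.18, -0.28 and 0.11. After centring the members' medians were -0.17, -0.58 and -0.29 under BMH-21 and -0.26, -0.44 and -0.23 under CX-5461, and with median-ratio factors those at 8 h were -0.15 and -0.13. The centred medians over all genes tested were also negative at 4 and 8 h, and they are given with the other JAKs, STATs and regulators. The plot of changes against untreated cells gives each member's value under both scalings.

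**Figure D2:**
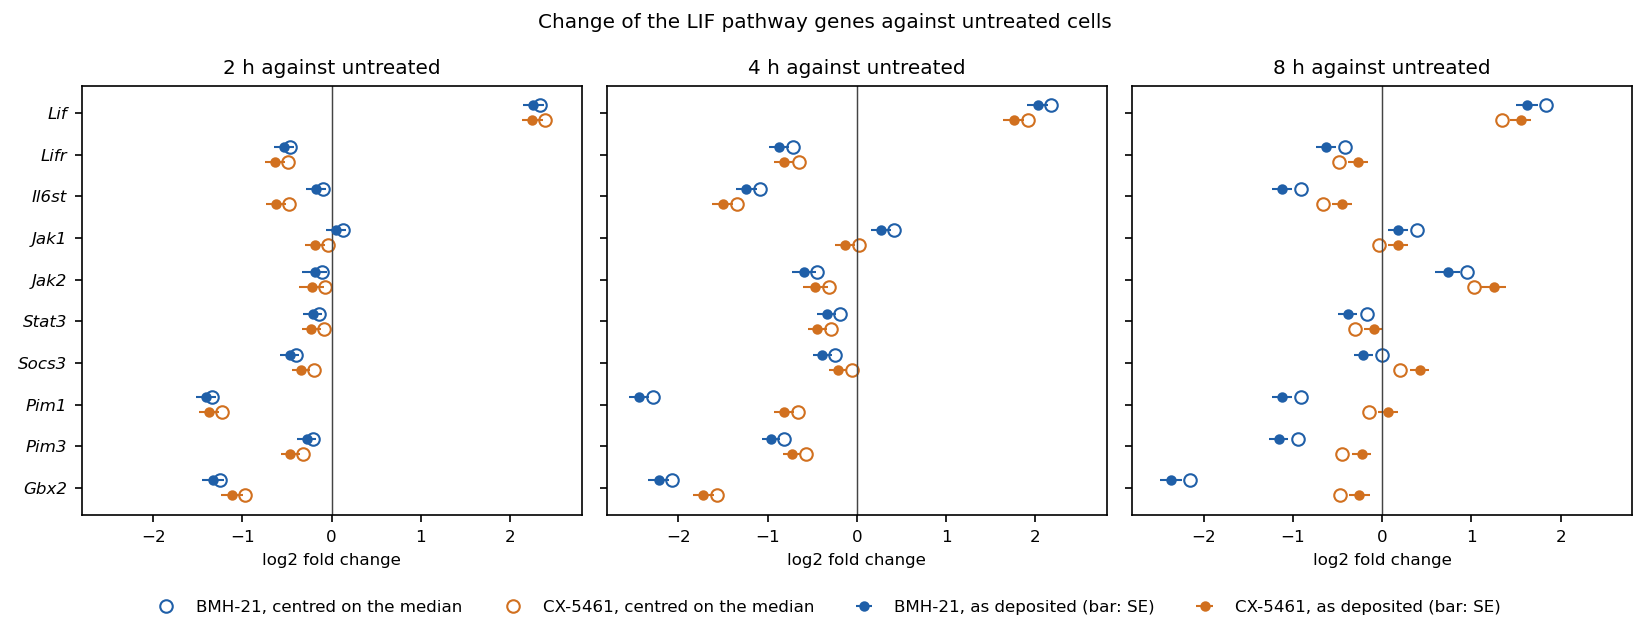
Log2 fold change against untreated cells (horizontal axis) of the 10 genes (vertical axis) at 2, 4 and 8 h, for BMH-21 (blue) and CX-5461 (orange). Filled points with SE bars are as deposited and open circles are centred on the median; at 8 h the open circles lie to the right of the filled points for BMH-21 and to the left for CX-5461.

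Lif (chromosome 11, 4257557 to 4272514, plus strand, GRCm38), the gene of the cytokine itself, rose between 2.94-fold and 4.79-fold in every comparison with control. Its log2 values in the control libraries were 2.51, 2.49 and 2.48, from 255 to 267 reads. After 2 h of BMH-21 they were 4.58, 4.90 and 4.79, after 4 h 4.69, 4.42 and 4.45, and after 8 h 4.13, 3.88 and 4.34. Under CX-5461 they were 4.84, 4.76 and 4.62 at 2 h, 4.22, 4.44 and 4.09 at 4 h, and 4.11, 3.86 and 4.18 at 8 h. Every treated library lay above every control, and the mean was highest at 2 h with both inhibitors. The log2 fold changes were 2.26, 2.03 and 1.62 under BMH-21 and 2.25, 1.76 and 1.56 under CX-5461, with 0.12 as the standard error of each and a limma adjusted p of at most 4.4e-24. Of all genes tested, 5.33% were called higher in all 6 comparisons (8.86% after centring). In the order of group means, BMH-21 at 2 h was followed by CX-5461 at 2 h, BMH-21 at 4 h, CX-5461 at 4 h, BMH-21 at 8 h and CX-5461 at 8 h, and the values of each neighbouring pair overlapped, down to the control, which stood apart. Under BMH-21 the level fell from 4 h to 8 h by 0.40 (limma adjusted p 0.00221). Under CX-5461 the same step was -0.20 (limma adjusted p 0.125) and passed the threshold after centring at -0.57. Because the medium already held LIF, this transcript is not the sole source of the cytokine in these cultures.

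Lifr (chromosome 15, 7090614 to 7197489, plus strand), the LIF-binding receptor chain, fell with both inhibitors at every time. Control libraries had log2 values of 6.99, 7.03 and 6.85. BMH-21 gave 6.25, 6.53 and 6.47 at 2 h, 6.18, 6.13 and 5.95 at 4 h, and 6.57, 5.99 and 6.41 at 8 h. CX-5461 gave 6.36, 6.32 and 6.28 at 2 h, 5.94, 6.38 and 6.11 at 4 h, and 6.77, 6.61 and 6.69 at 8 h. No treated library reached a control library, the lowest group mean was that of BMH-21 at 4 h, and as deposited the CX-5461 libraries at 8 h came nearest to control, while after centring BMH-21 at 8 h was nearest and CX-5461 at 8 h was behind BMH-21 at 2 h as well. Against control the log2 fold change was -0.54, -0.87 and -0.63 under BMH-21 and -0.64, -0.81 and -0.27 under CX-5461 (standard error 0.11), with limma adjusted p of 7.2e-05, 1.5e-11, 2.3e-07, 1.9e-06, 2.2e-10 and 0.0372. All 6 were called under all 3 scalings, and 2.29% of all genes tested were called lower in all 6 as deposited (7.33% after centring). The 8 h call of CX-5461 was lost without control replicate 1 (-0.25), control replicate 2 (-0.23), CX-5461 8 h replicate 2 (-0.23) or replicate 3 (-0.27), and it was -0.48 after centring (limma adjusted p 9.1e-07).

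Il6st (chromosome 13, 112464070 to 112510086, plus strand), the signal-transducing chain, fell most at 4 h. Its log2 values were 6.58, 6.58 and 6.44 in control and 6.12, 6.51 and 6.45 after 2 h of BMH-21, where the groups overlapped. They were 5.51, 5.27 and 5.11 after 4 h and 5.63, 5.10 and 5.51 after 8 h of BMH-21. CX-5461 gave 6.02, 5.88 and 5.83 at 2 h, 4.83, 5.24 and 5.01 at 4 h, and 6.14, 6.11 and 6.02 at 8 h. Except at 2 h of BMH-21, all treated libraries lay below every control. This gave log2 fold changes of -0.18 (limma adjusted p 0.32), -1.24 and -1.12 under BMH-21 and -0.63, -1.50 and -0.45 under CX-5461 (standard error 0.11), and the largest limma adjusted p of the last 5 was 0.00056. The fall at 4 h was thus 2.36-fold under BMH-21 and 2.84-fold under CX-5461. Il6st had the largest ratio of its own spread to the spread the test assumed (1.27, with Lifr at 1.21 and the other 8 members between 0.745 and 1.09), so the test took a smaller spread for it than its own libraries had.

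The kinase genes behaved differently from each other. Jak1 (chromosome 4, 101152367 to 101265282, minus strand), the main kinase of this receptor in embryonic stem cells, had log2 values of 5.39 to 5.62 in control and of 5.27 to 6.02 over the 18 treated libraries. It passed the threshold as deposited at 4 h of BMH-21 alone, by 0.27 (limma adjusted p 0.027), a call lost without control replicate 3 (0.20) or BMH-21 4 h replicate 1 (0.16). Its other log2 fold changes were 0.05 and 0.18 under BMH-21 at 2 and 8 h, and -0.19, -0.13 and 0.18 under CX-5461. Centring moved the BMH-21 values to 0.12, 0.42 and 0.39, all past the threshold (limma adjusted p 0.0338, 1.3e-08 and 2.2e-08), and it turned the sign of the CX-5461 values at 4 h (0.02) and 8 h (-0.04), which with median-ratio factors were 0.12 and 0.06. The direction of Jak1 under CX-5461 therefore depends on the scaling.

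Jak2 (chromosome 19, 29251828 to 29313080, plus strand), a kinase used by many cytokine receptors, dipped and then rose. Its log2 values were 2.32, 2.33 and 2.21 in control, from 218 to 233 reads. After 4 h they were 1.94, 1.59 and 1.56 under BMH-21 and 1.68, 2.01 and 1.77 under CX-5461, all below control. After 8 h they were 3.20, 2.73 and 3.12 under BMH-21 and 3.58, 3.60 and 3.42 under CX-5461, all above control. At 2 h the groups overlapped control with both inhibitors, at -0.19 and -0.22. The log2 fold changes were -0.59 (limma adjusted p 0.0001) and -0.47 (limma adjusted p 0.00208) at 4 h and 0.73 (limma adjusted p 1.1e-06) and 1.25 (limma adjusted p 5.1e-14) at 8 h, for BMH-21 and CX-5461 in turn, with a standard error of 0.14. After centring they were -0.44, -0.31, 0.95 and 1.03, and all 4 stayed past the threshold. From 4 h to 8 h the level rose 2.51-fold under BMH-21 and 3.29-fold under CX-5461. By mean, CX-5461 at 8 h stood above BMH-21 at 8 h with no overlap, and that group stood above the control with no overlap. After centring the inhibitors overlapped at 8 h and differed by -0.09 (limma adjusted p 0.335).

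Stat3 (chromosome 11, 100885098 to 100939540, minus strand), the transcription factor that carries the signal, changed little beside its receptors. Control libraries had log2 values of 7.66, 7.75 and 7.57 and the 18 treated libraries 7.08 to 7.60. It fell by 0.34 at 4 h (limma adjusted p 0.00337) and by 0.38 at 8 h of BMH-21 (limma adjusted p 0.00065), and by 0.44 at 4 h of CX-5461 (limma adjusted p 0.00013), with a standard error of 0.11. The other log2 fold changes were -0.21 at 2 h of BMH-21 and -0.23 and -0.09 at 2 and 8 h of CX-5461. The 2 h change of BMH-21 passed the threshold after centring (-0.14, limma adjusted p 0.00394) and with median-ratio factors (-0.13, limma adjusted p 0.00679). The 8 h change of BMH-21 was -0.17 after centring and -0.03 with median-ratio factors (limma adjusted p 0.507), where the call was lost. The 8 h change of CX-5461 was -0.31 after centring and -0.21 with median-ratio factors, past the threshold with each.

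Socs3 (chromosome 11, 117966079 to 117970047, minus strand) encodes the feedback inhibitor that is switched on by STAT3 itself. Of the RefSeq promoter windows (GRCm38.p6, 250 bases before to 50 after each start), all 10 members matched, with 12 windows in all. The motif TTCNNNGAA, read the same on both strands, was found in 1 of these windows, that of Socs3, and in 8.3% of all 32851 windows of this length in the table. The 250 bases before the start of Socs3, chr11:117969367-117969616 on the minus strand, are shown because they hold that match, which is in capitals and begins 154 bases before the start.
Socs3 promoter: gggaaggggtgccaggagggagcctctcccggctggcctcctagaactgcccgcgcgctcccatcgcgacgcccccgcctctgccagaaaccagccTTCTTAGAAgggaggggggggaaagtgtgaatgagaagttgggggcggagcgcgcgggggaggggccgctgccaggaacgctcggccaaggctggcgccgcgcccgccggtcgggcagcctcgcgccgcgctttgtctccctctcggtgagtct
In GENCODE M21, exon 1 of the non-coding transcript Socs3-203 (117969375 to 117969451) lies inside these bases, and the gene's outermost start, 117970047, lies upstream of them. The match describes these letters, and binding there was not measured. The Lifr windows, which begin at 7129322 and 7140292, also lie downstream of the outermost start of that gene, 7090614. Sequence at the outermost starts of Socs3 and Lifr was therefore not searched.

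The Socs3 transcript fell early and ended above control under CX-5461. Its log2 values were 7.39, 7.28 and 7.21 in control. BMH-21 gave 6.70, 6.87 and 6.90 at 2 h, 6.98, 6.80 and 6.93 at 4 h, and 7.19, 6.96 and 7.10 at 8 h. CX-5461 gave 7.11, 6.81 and 6.93 at 2 h, 7.02, 7.23 and 7.01 at 4 h, and 7.76, 7.63 and 7.75 at 8 h. The CX-5461 libraries at 8 h lay above every control and all other treated libraries. The log2 fold changes under BMH-21 were -0.47 (limma adjusted p 0.00024), -0.39 (limma adjusted p 0.00068) and -0.21 (limma adjusted p 0.0572), with a standard error of 0.11. The last of these was 0.00 after centring and 0.15 with median-ratio factors (limma adjusted p 0.005), so its direction depends on the scaling. As deposited it passed the threshold in 2 of 6 fits with a library left out. Under CX-5461 they were -0.34 (limma adjusted p 0.00885), -0.21 (limma adjusted p 0.0656) and 0.42 (limma adjusted p 0.00038). The 2 h call was lost without control replicate 1 (-0.29) or CX-5461 2 h replicate 2 (-0.27). The change at 4 h turned to 0.04 under median-ratio factors, and as deposited it passed the threshold in 2 of 6 fits with a library left out. The rise at 8 h was 0.20 after centring and 0.30 with median-ratio factors, and it held whichever of the 6 libraries was left out (0.38 to 0.47).

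Pim1 (chromosome 17, 29490753 to 29496112, plus strand) encodes a serine/threonine kinase that promotes survival and growth, and it fell early with both inhibitors. Pim1 had log2 values of 5.81, 5.88 and 5.76 in control. BMH-21 gave 4.29, 4.49 and 4.44 at 2 h, 3.57, 3.18 and 3.40 at 4 h, and 4.88, 4.53 and 4.71 at 8 h. CX-5461 gave 4.53, 4.48 and 4.31 at 2 h, 4.90, 5.13 and 4.99 at 4 h, and 5.87, 5.83 and 5.96 at 8 h. The inhibitors gave overlapping values at 2 h, the BMH-21 values were lower still at 4 h, and the CX-5461 values overlapped control at 8 h. The differences from control were -1.41, -2.44 and -1.12 under BMH-21 (limma adjusted p 8.2e-22, 1.6e-42 and 7.4e-17) and -1.38, -0.81 and 0.07 under CX-5461 (limma adjusted p 3.5e-21, 2.3e-10 and 0.649), with a standard error of 0.11. The fall at 4 h of BMH-21 was 5.41-fold, the largest fall of any member in any comparison with control. After centring the last value was -0.15 (limma adjusted p 0.0269), and with median-ratio factors it was -0.05, so its sign turned with the scaling. Of the exon bases of Pim1, 14.5% overlap the opposite-strand gene Gm26885, and whether reads were counted by strand is not given in the sources used here.

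Pim3 (chromosome 15, 88862186 to 88865726, plus strand) encodes a kinase closely related to PIM1 and, under BMH-21, was lowest at 8 h by mean. Its log2 values were 7.32 to 7.42 in control, 7.03 to 7.14, 6.29 to 6.52 and 6.14 to 6.33 after 2, 4 and 8 h of BMH-21, and 6.83 to 7.02, 6.57 to 6.80 and 7.05 to 7.21 under CX-5461. No treated library reached a control library. This gave log2 fold changes of -0.28, -0.96 and -1.16 under BMH-21 (limma adjusted p 0.0427, 7.6e-15 and 1.7e-19) and -0.46, -0.73 and -0.23 under CX-5461 (limma adjusted p 0.00027, 1.1e-09 and 0.061), with a standard error of 0.10. The call at 2 h of BMH-21 held only without control replicate 3, with values between -0.31 and -0.25 over the 6 libraries left out in turn. Centring took the 8 h change of CX-5461 past the threshold (-0.44, limma adjusted p 9.5e-09).

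Gbx2 (chromosome 1, 89927956 to 89931179, minus strand), a homeobox transcription factor downstream of STAT3 in these cells, showed the largest fall at 8 h of BMH-21. Control libraries had log2 values of 4.93, 4.88 and 4.78, from 1303 to 1427 reads. BMH-21 gave 3.32, 3.65 and 3.63 at 2 h, 2.72, 2.56 and 2.65 at 4 h, and 2.70, 2.39 and 2.42 at 8 h, the last from 335 to 451 reads. CX-5461 gave 3.89, 3.69 and 3.66 at 2 h, 3.00, 3.36 and 3.07 at 4 h, and 4.70, 4.56 and 4.56 at 8 h. Every treated library lay below every control, and the CX-5461 libraries at 8 h came nearest. The differences from control were -1.33, -2.22 and -2.36 under BMH-21, which is a 5.15-fold fall at 8 h (limma adjusted p 2.2e-18, 4.0e-36 and 7.4e-39). Under CX-5461 they were -1.12, -1.72 and -0.25 (limma adjusted p 3.0e-14, 7.4e-27 and 0.0682), all with a standard error of 0.12. At 8 h of CX-5461 it passed the threshold under both other scalings, at -0.47 (centred) and -0.37 (median-ratio). Of the exon bases of Gbx2, 43.5% overlap D130058E05Rik on the opposite strand, so reads of that gene cannot be told from its own if strand was not used in counting.

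Per kilobase of exon (all annotated exons merged), the control levels of the members on the log2 scale were 6.10 for Pim3, 5.76 for Socs3, 4.41 for Stat3, 4.07 for Pim1, 3.74 for Gbx2, 3.53 for Lifr, 3.06 for Il6st, 2.68 for Jak1, 0.37 for Lif and -0.05 for Jak2. The kinase gene Jak2 and the ligand gene were thus the lowest of the 10 by this measure. After 8 h of CX-5461, Socs3 was at 6.18 and Pim3 at 5.88 per kilobase. Merged exon length is not the length of the transcript made in these cells, so small differences between genes on this scale carry little weight.

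The inhibitors were then compared with each other at matched dose and time, over the 10 members at 3 times. At 2 h, 1 of 10 members differed, against 3.99% of all genes tested (2.47% higher and 1.52% lower). After centring 2 were higher and 2 lower (background 7.83% and 7.58%). The member called as deposited was Il6st, higher under BMH-21 by 0.45 (standard error 0.11, limma adjusted p 0.00739). The call was lost without BMH-21 2 h replicate 2 (0.38) or replicate 3 (0.40), or CX-5461 2 h replicate 2 (0.44) or replicate 3 (0.41), and it was 0.38 after centring (limma adjusted p 0.00024). For Lif the difference at 2 h was 0.01, with a 95% interval of -0.22 to 0.25, and for Pim1 it was -0.03, with an interval of -0.26 to 0.19. Both intervals include 0, and the sign for Lif turned after centring (-0.06).

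At 4 h, 3 of 10 members differed, 1 higher under BMH-21 and 2 lower (background 17.8%, 9.35% higher and 8.49% lower). The split was 4 and 4 after centring (background 27.4% and 18.5%), and 3 and 4 with median-ratio factors (17.6% and 24.1%). Leaving out CX-5461 4 h replicate 2 raised the number to 5, with Lif (0.36) and Il6st (0.37) added, and Il6st also passed without BMH-21 4 h replicate 3 (0.36). Pim1 was lower under BMH-21 by 1.62 on the log2 scale, a 3.08-fold difference (limma adjusted p 3.5e-25), with no overlap between the inhibitors and -1.63 after centring. Gbx2 differed by -0.50 (limma adjusted p 0.001) and Jak1 by 0.40 (limma adjusted p 0.00499), which was 0.29 and lost the threshold without BMH-21 4 h replicate 1. Of the genes that did not pass, Lifr differed by -0.06, with an interval of -0.28 to 0.16, and Stat3 by 0.10, with an interval of -0.11 to 0.31.

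At 8 h, 8 of 10 members were lower under BMH-21 than under CX-5461 as deposited, where 79.2% of all genes tested were called, with 67.2% lower. After centring 3 members were higher and 5 lower (background 31.1% and 40.6%), so the direction of the smaller differences depended on the scaling. Gbx2 was lower under BMH-21 by 2.11 (limma adjusted p 2.5e-33, a 4.31-fold difference), Pim1 by 1.18 (limma adjusted p 1.0e-17), Pim3 by 0.93 (limma adjusted p 5.5e-14), Il6st by 0.68 (limma adjusted p 9.5e-08) and Socs3 by 0.63 (limma adjusted p 5.9e-08). These 5 stayed lower and past the threshold after centring, at -1.68, -0.75, -0.50, -0.25 and -0.20. Jak2 was lower by 0.51 as deposited (limma adjusted p 0.00056) and -0.09 after centring (limma adjusted p 0.335). Lifr (-0.36) and Stat3 (-0.29) turned to 0.07 and 0.14 after centring, and as deposited both calls were lost without BMH-21 8 h replicate 2 (-0.19 for each). Lif and Jak1 differed by 0.07 and 0.01 as deposited and by 0.49 and 0.43 after centring (limma adjusted p 1.9e-06 and 1.0e-08).

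The last step, from 4 h to 8 h, was tested within each inhibitor, since the control enters neither side of it. Under CX-5461, 9 of 10 members were higher at 8 h than at 4 h, where 63.7% of all genes tested were called, 58.8% higher and 4.85% lower. After centring 7 were higher and 1 lower (background 25.8% and 32.0%). Jak2 rose by 1.72, Gbx2 by 1.47, Il6st by 1.06, Pim1 by 0.88, Socs3 by 0.63, Lifr by 0.54 and Pim3 by 0.50, with a largest limma adjusted p of 2.3e-05, and these 7 were the ones called higher after centring, at 1.34, 1.09, 0.68, 0.51, 0.26, 0.17 and 0.12. Stat3 (0.35) and Jak1 (0.31) turned to -0.02 and -0.06 after centring, and the Jak1 call was lost without CX-5461 4 h replicate 1 (0.25).

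Under BMH-21, 2 members rose from 4 h to 8 h and 1 fell, where 56.4% of all genes tested were called (18.6% higher, 37.8% lower). The split was 5 and 2 after centring (background 28.3% and 42.2%), and 6 and 1 with median-ratio factors (36.7% and 32.5%). Jak2 rose by 1.33 (limma adjusted p 6.5e-15) and Pim1 by 1.32 (limma adjusted p 4.7e-20), with no overlap between the times, and Lif was the member that fell. Gbx2 changed by -0.14 (limma adjusted p 0.308), with values that overlapped and a 95% interval of -0.38 to 0.09. Without BMH-21 8 h replicate 2 the number called was 5, with Lifr (0.41) and Il6st (0.27) added, and without BMH-21 4 h replicate 1 Lifr was also called (0.29). That BMH-21 8 h library also had the largest scaling factor, 1.375, and as deposited its value of every member was the lowest of the group. The plot of the late change shows both inhibitors side by side.

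**Figure D3:**
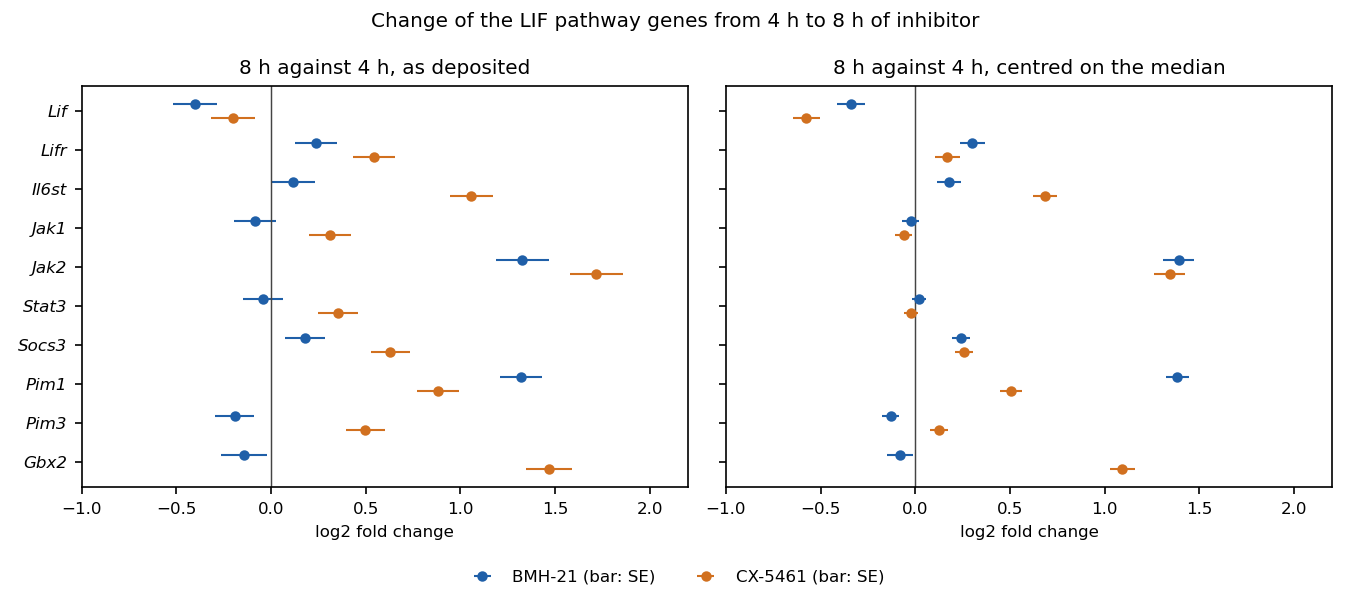
Log2 fold change from 4 h to 8 h (horizontal axis, bars SE) of the 10 genes (vertical axis) under BMH-21 (blue) and CX-5461 (orange), as deposited on the left and centred on the median on the right. Gbx2 lies near 0 under BMH-21 and above 1 under CX-5461 in both panels, and Jak2 lies above 1 with both inhibitors in both panels.

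The difference between the inhibitors in this last step was itself tested, and 7 of 10 members passed, 1 in the direction of BMH-21 and 6 in that of CX-5461, where 69.4% of all genes tested passed (7.98% and 61.4%). After centring the split was 1 and 3 (background 24.0% and 36.2%), and with median-ratio factors 4 and 3 (30.3% and 27.6%). For Gbx2 the step was smaller under BMH-21 by 1.61 as deposited (standard error 0.17, limma adjusted p 1.3e-14) and by 1.17 after centring, and for Il6st by 0.94 (standard error 0.16, limma adjusted p 3.5e-07) and 0.51. Pim1 was the member whose step was larger under BMH-21, by 0.44 as deposited (limma adjusted p 0.0107) and 0.88 after centring (limma adjusted p 5.6e-09). As deposited that call was lost without BMH-21 4 h replicate 2 (0.34) or BMH-21 8 h replicate 1 (0.35). Jak2, which rose with both inhibitors, differed by -0.39 as deposited (limma adjusted p 0.0708, interval -0.78 to 0.00) and by 0.05 after centring. With all libraries a difference in its late rise was thus not detected, and its sign depends on the scaling. As deposited it passed the threshold in 3 of 12 fits with a library left out, over which it ranged from -0.48 to -0.25.

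For 3 members the genes with the most similar course were looked up among 9729 genes with a mean log2 of at least 3, by Pearson's r over the 21 centred libraries. The nearest to Socs3 were Rhbdf1 (r = 0.917), Tmf1 (0.913) and Ubash3a (0.904). The nearest to Gbx2 were Rnf31 (0.975), the sialyltransferase gene St6galnac2 (0.964) and the receptor tyrosine kinase gene Erbb2 (0.964). The nearest to Lifr were the kinesin gene Kif14 (0.934), Arhgef18 (0.929) and Mynn (0.907). Among the members themselves r was highest for Gbx2 and Pim3 (0.862), for Pim3 and Il6st (0.786) and for Il6st and Lifr (0.752), and lowest for Gbx2 and Jak1 (-0.801). All points share the 7 groups, so these values describe the course over groups.

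The other genes of the pathway were taken from 3 lists. Of 10 other cytokines and receptors of the interleukin-6 family, 7 were tested, since Il6, Cntf and Clcf1 had at most 6, 17 and 53 reads in any library. Of these 7, 3 rose and 3 fell at 4 h of BMH-21 (4 and 3 after centring) and 3 and 3 at 8 h (4 and 2), where 67.0% and 81.5% of all genes tested were called. Under CX-5461, 2 rose and 3 fell at 4 h (4 and 2) and 3 and 1 at 8 h (3 and 1), where 70.9% and 49.4% were called. After centring, 32.2% of all genes tested were called higher and 41.5% lower at 4 h of BMH-21, and 33.3% and 51.3% at 8 h. The centred shares under CX-5461 were 28.5% and 45.7% at 4 h and 29.3% and 44.7% at 8 h. Cntfr, the receptor of ciliary neurotrophic factor, fell by 1.62 at 8 h of BMH-21 (limma adjusted p 1.2e-24) and by 0.92 at 8 h of CX-5461 (limma adjusted p 1.0e-10). Il6ra, the interleukin-6 receptor, rose by 1.91 (limma adjusted p 4.7e-22) and 1.37 (limma adjusted p 1.9e-13) on the log2 scale at these times. Osmr encodes the oncostatin M receptor, which also pairs with the Il6st chain. Its mean stood 2.17 above control at 8 h of BMH-21, with 96 to 122 reads beside 15 to 18 in control. Only BMH-21 libraries, of the 4 and 8 h groups, had an Osmr value above 0, so it passed the filter only through groups where it was high. Its call there, which the counts of risen genes include, is therefore no independent support for a rise.

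Of 23 other JAKs, STATs and regulators, all tested, 7 rose and 10 fell at 4 h of BMH-21 (9 and 10 after centring, 10 and 9 with median-ratio factors) and 6 and 11 at 8 h (11 and 9, 13 and 8). Under CX-5461, 7 rose and 9 fell at 4 h (11 and 7, 12 and 7) and 11 and 3 at 8 h (10 and 9, 11 and 7). The shares of all genes called as deposited were 67.0%, 81.5%, 70.9% and 49.4% in these 4 comparisons, and the centred shares are those of the list before. With median-ratio factors, 34.4% were higher and 38.8% lower, then 39.2% and 43.3%, 33.3% and 36.5%, and 35.2% and 35.3%. The median log2 fold change of the 23 genes was -0.18, -0.10, -0.06 and 0.17 in the same order, beside -0.21, -0.40, -0.28 and 0.11 over all genes tested. After centring it was -0.04, 0.11, 0.09 and -0.05, so 3 of the 4 signs turned, beside -0.06, -0.19, -0.12 and -0.11 over all genes. The feedback inhibitor genes did not move as one. Socs5 rose by 0.97 and 1.22 at 4 and 8 h of BMH-21 and by 0.83 and 1.33 under CX-5461, while Socs2 fell by 1.69, 1.89, 1.52 and 0.40 and Socs6 by 1.17, 1.35, 0.88 and 0.34, in the same order. The last Socs2 call held in 5 of 6 cases when a library was left out. Pim2, the third kinase gene of the Pim family, fell by 0.76, 1.37, 0.96 and 0.48 (largest limma adjusted p 6.5e-05). At 4 h all 3 Pim genes fell with both inhibitors under all 3 scalings. As deposited, 44.9% of all genes tested fell at 4 h of BMH-21 and 51.2% at 4 h of CX-5461. The share that fell with both inhibitors was not computed, so no result on the Pim family is drawn.

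Of 14 other LIF and STAT3 responsive genes, 5 rose and 8 fell at 4 h of BMH-21 (5 and 8 after centring) and 6 and 5 at 8 h (9 and 5), and 4 rose and 6 fell at 4 h (5 and 6) and 8 and 4 at 8 h (7 and 5) of CX-5461, beside the same 67.0%, 81.5%, 70.9% and 49.4% of all genes. Their median was -0.30, 0.18, -0.10 and 0.46 in this order, and -0.16, 0.39, 0.06 and 0.25 after centring, where the third sign turned. The medians of all genes are those given for the list before, and the shares after centring are those given with the other cytokines and receptors. Gbx1 had values above 0 only in libraries of 4 and 8 h of BMH-21 and of 4 h of CX-5461. It thus passed the filter only through groups where it was high. Its calls, which the counts of risen genes include, are therefore no independent support for a rise. The genes that fell include pluripotency regulators. Klf4 fell by 0.75 and 1.35 under BMH-21 and by 0.65 and 0.43 under CX-5461 at 4 and 8 h, Myc by 0.63, 1.57, 0.65 and 0.40, and Pramel7 by 1.28, 1.90, 1.56 and 0.68 (largest limma adjusted p 0.0014, for Pramel7). Tfcp2l1 fell by 1.44 at 8 h of BMH-21 and by 0.78 at 8 h of CX-5461. The genes that rose include members of the early response transcription factor families. Fos rose by 2.76 and 2.54 under BMH-21 and by 1.89 and 1.65 under CX-5461, Junb by 0.92, 1.34, 0.54 and 1.05, and Cebpb by 1.26, 1.17, 0.74 and 0.65 (largest limma adjusted p 5.5e-06, for Junb). Sp5, also a target of Wnt signalling, fell by 1.98 at 4 h and rose by 1.39 at 8 h of BMH-21, and fell by 0.73 and rose by 1.56 under CX-5461. That course, lower at 4 h and higher at 8 h with both inhibitors, is also that of Jak2. The plot of the other pathway genes gives these values by group.

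**Figure D4:**
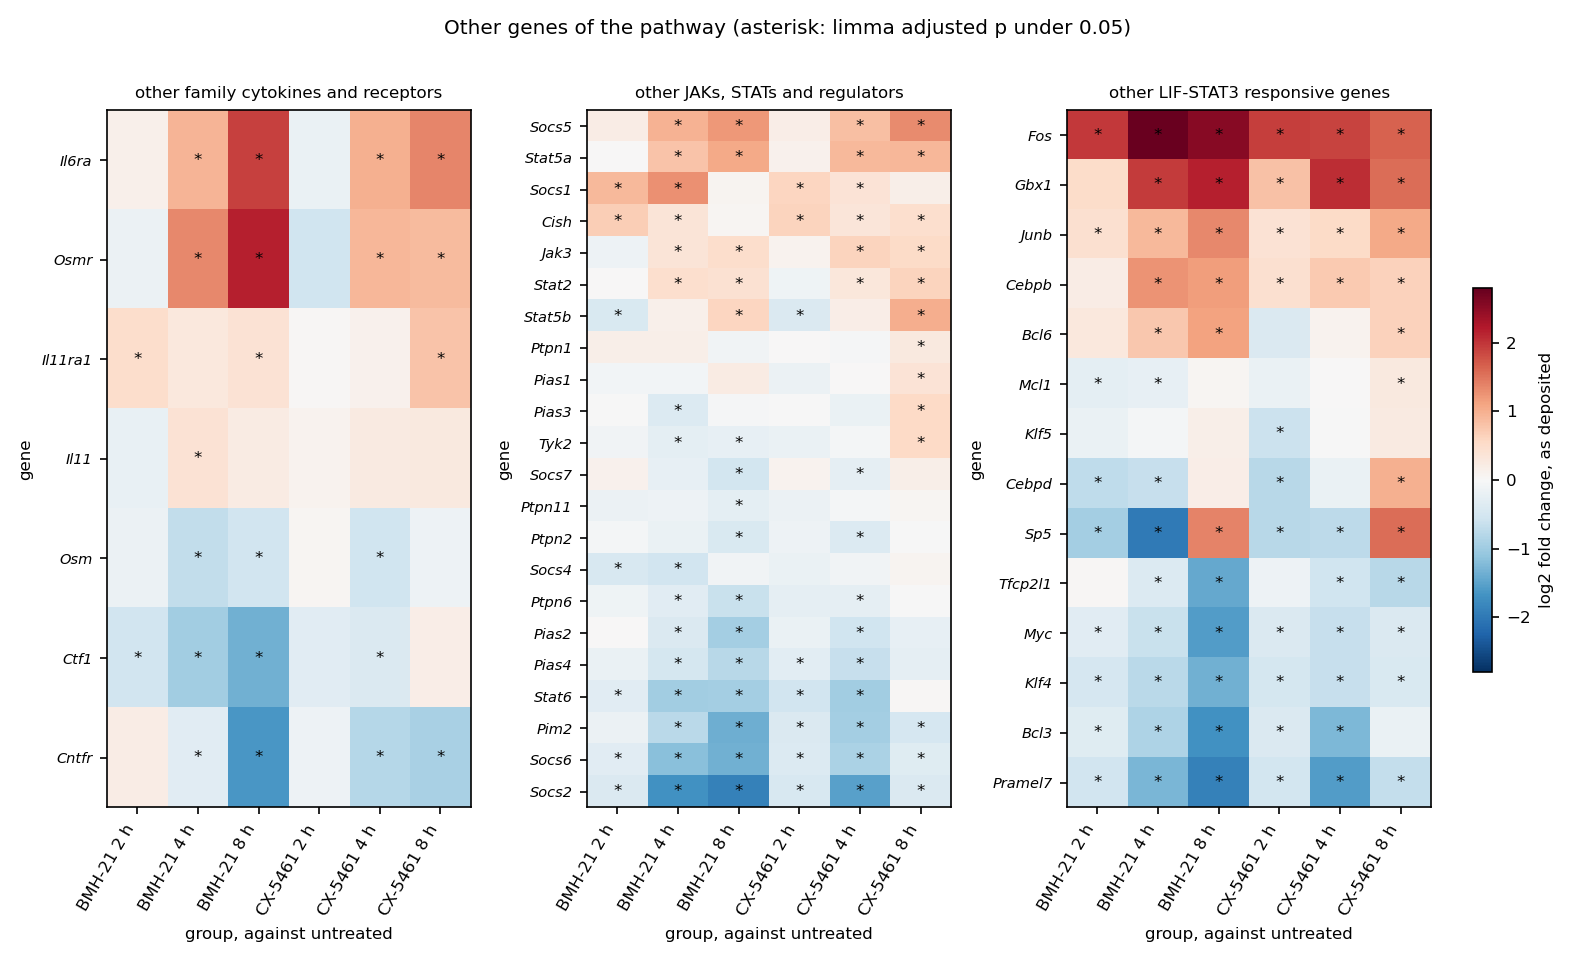
Log2 fold change against untreated cells as deposited (colour scale, red higher and blue lower) of the other cytokines and receptors, the other JAKs, STATs and regulators, and the other responsive genes (rows) in the 6 treated groups (columns). Asterisks mark a limma adjusted p under 0.05; Socs5 and Fos are red and Socs2, Socs6 and Klf4 blue at 4 and 8 h with both inhibitors.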

How the data were processed

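RNA of 21 libraries was sequenced as poly(A) RNA with a directional kit, per the labels' protocols. The authors deposited 1 table of log2 values for 20900 genes, and all 21 columns were matched to samples by name. The values are log2 CPM over a scaled library size with an offset of 0.5 reads: whole reads were recovered from them for 100.0% of values (largest deviation 1.7e-08 reads). The submitters' processing notes name Trim Galore 0.5.0, TopHat2 2.1.1, R 4.0.5, DESeq2 1.30.1, edgeR 3.32.1, limma 3.46.0 and the build mm10. The counting program, its strand setting, the gene annotation and the origin of the scaling factors are not given in the sources used here. A count of 3 reads corresponds to a log2 value of -4.63 to -3.59, and intervals cover these libraries only.

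Differences were computed from the deposited log2 values with limma 3.58.1 in R 4.3.3: 1 mean per group over all 21 libraries, a variance trend, 12 two-sided comparisons, and Benjamini-Hochberg adjustment over the 14666 genes with a log2 above 0 in at least 3 libraries (6234 were not tested). Intervals printed with differences are 95% intervals of that fit. The prior degrees of freedom were 111.5 as deposited and 8.5 after centring, beside 14 residual ones. Alternatives were centring on the median, median-ratio factors, other filters and offsets, no variance trend, voom weights, separate fits, a replicate block and leaving out each library. Members and gene lists were chosen with earlier results of these data known. Members were all described. Other genes were named from those called in at least 5 of the 6 comparisons with control, or with the largest rise or fall of their list at 8 h. Of the genes that met the first rule, Cish, Stat6, Bcl3 and Gbx1, called in 5 each, are not described, apart from how Gbx1 passed the filter. Values of the named genes are given only at 4 and 8 h, a restriction made after their values were seen. Gene positions are from GENCODE M21 (GRCm38) and promoter sequence is from RefSeq (GRCm38.p6). The values of 1 gene of the lists are not reported here.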

Additional observations from a re-analysis of the deposited data

Results flagged for a closer look

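The change from 4 h to 8 h differed between the inhibitors for 7 members, by limma's test of the difference itself, given as BMH-21 minus CX-5461 on the log2 scale. In the same test 69.4% of all genes passed, so the number of members is near the background. The values were -1.61 for Gbx2 (limma adjusted p 1.3e-14), -0.94 for Il6st (3.5e-07), -0.69 for Pim3 (2.8e-05), -0.45 for Socs3 (0.00521), -0.40 for Jak1 (0.0203), -0.40 for Stat3 (0.0154) and 0.44 for Pim1 (0.0107). After centring, Gbx2 (-1.17), Il6st (-0.51), Pim3 (-0.25) and Pim1 (0.88) stayed past the threshold, while Socs3 (-0.02) did not and Jak1 and Stat3 turned to 0.04 each. As deposited, the Jak1 and Stat3 calls were lost without BMH-21 4 h replicate 1 (-0.29 and -0.30), BMH-21 8 h replicate 2 (-0.29 and -0.30) or CX-5461 4 h replicate 1 (-0.33 and -0.34). The Pim1 call was lost without BMH-21 4 h replicate 2 (0.34) or BMH-21 8 h replicate 1 (0.35).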

How the results depend on the processing

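Of the 120 member differences, the scaling moved the most: centring changed the sign of 17, brought 21 past the threshold and took 2 out, and median-ratio factors did so for 21, 19 and 2. The replicate block with centring gave 17, 21 and 2, as centring alone did. Of the other settings, only leaving out a library changed a sign, and at most 2 calls changed under each of the rest. The cause was not tested. Values that turned after centring (equal with the replicate block and centring) were 0.0011 for Socs3 at 8 h of BMH-21, 0.024 and -0.038 for Jak1 at 4 and 8 h and -0.15 for Pim1 at 8 h of CX-5461. Between inhibitors they were -0.058 for Lif, -0.034 for Jak2 and -0.057 for Stat3 at 2 h, and 0.067 for Lifr and 0.14 for Stat3 at 8 h. From 4 h to 8 h they were 0.018 for Stat3 under BMH-21 and -0.063 for Jak1 and -0.023 for Stat3 under CX-5461. In the difference of these steps they were 0.23 for Lif, 0.13 for Lifr, 0.039 for Jak1, 0.047 for Jak2 and 0.041 for Stat3. With median-ratio factors the turned values were 0.15 and 0.04 for Socs3 at 8 h of BMH-21 and 4 h of CX-5461, 0.12 for Jak1 at 4 h and -0.049 for Pim1 at 8 h of CX-5461. Between inhibitors they were -0.087 for Lif, -0.0011 for Lifr, -0.063 for Jak2 and -0.085 for Stat3 at 2 h, and 0.11 for Lifr and 0.18 for Stat3 at 8 h. From 4 h to 8 h they were 0.088 for Jak1, 0.13 for Stat3 and 0.030 for Gbx2 under BMH-21, -0.054 for Jak1 and -0.014 for Stat3 under CX-5461, and in the difference 0.34 for Lif, 0.24 for Lifr, 0.14 for Jak1, 0.15 for Jak2, 0.14 for Stat3 and 0.087 for Socs3.

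Counts that moved by over 1.5 times did so mainly with scaling, given as centred, median-ratio, and replicate block with centring. All genes called went from 2891 to 5285, 5243 and 5141 at 2 h of BMH-21, from 585 to 2261, 2208 and 2120 between inhibitors at 2 h, and from 2617 to 6719, 6116 and 6535 at 4 h. Members called went from 5 to 9, 8 and 9 at 8 h of CX-5461, from 1 to 4, 4 and 4 between inhibitors at 2 h (0 without a variance trend), from 3 to 8, 7 and 8 at 4 h, from 3 to 7, 7 and 7 for 8 h against 4 h of BMH-21, and from 7 to 4 in the difference of the steps after centring, with or without the block.

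Leaving out 1 library at a time, members called ranged over 3 to 5 for 8 h against 4 h of BMH-21, 0 to 1 between inhibitors at 2 h and 2 to 5 at 4 h, and all genes over 361 to 653, 1687 to 2931, and 2370 to 5592 at 2 h of CX-5461 (4096 with all). Calls were also gained in 1 of 6 fits for Jak1 at 8 h of BMH-21 and for Stat3 at 2 h and Pim3 at 8 h of CX-5461. For Lifr in the difference of the steps a call was gained in 3 of 12 fits. Values whose sign turned were small: Jak1 at 2 h of BMH-21 (-0.023 to 0.13), for 8 h against 4 h of BMH-21 (-0.16 to 0.023) and between inhibitors at 8 h (-0.055 to 0.11). Stat3 for 8 h against 4 h of BMH-21 ranged from -0.11 to 0.053. Between inhibitors, the ranges were -0.058 to 0.12 for Jak2, -0.058 to 0.10 for Lif, -0.098 to 0.025 for Pim1 and -0.053 to 0.090 for Stat3 at 2 h, -0.16 to 0.064 for Lifr at 4 h and -0.045 to 0.19 for Lif at 8 h.

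Replicate numbers did not pair the libraries: deviations of same-numbered libraries correlated at a median r of 0.002 (-0.251 to 0.109), and 1 of 21 libraries correlated best with its own number. With the replicate block 119 of 120 member calls were the same, and Pim3 at 2 h of BMH-21 had a limma adjusted p of 0.0565. The lowest count of any member was 162 reads.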
